A study of Mus musculus with 8 samples.

Results

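The levels of 10 Kruppel-like factor genes were followed on the arrays, those of Klf2, Klf3, Klf4, Klf5, Klf6, Klf7, Klf10, Klf11, Klf13 and Klf15. They were chosen by name, as the genes to which the RefSeq accession of a probe leads, and they make up 10 of the 19751 genes with a named probe. The choice of these genes was made with earlier results of these data known. Each of them had 1 probe. In HX630-treated cells Klf2 fell to 48.5% and Klf4 to 39.1% of the control level under the reported scaling, Klf10 rose 2.66-fold, and Klf11 and Klf13 rose less. Klf3, Klf5, Klf6 and Klf7 moved by less than 1.5-fold, and Klf15 gave no signal well above background.

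The cells were AtT20, a mouse pituitary corticotroph tumor line that secretes ACTH, and the study used this 1 line. The 4 control samples received no agent, and 4 samples received the synthetic retinoid X receptor (RXR) agonist HX630 at 10 μM. Both groups were incubated for 48 hr in medium with stripped serum after growth in regular medium, and the labels do not say whether the controls received the solvent. The labels also do not say whether the 4 samples of a group came from separate cultures, so every p-value measures the spread between these samples, which may be technical.

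Kruppel-like factors are transcription factors with zinc fingers at the carboxyl end that bind GC boxes and CACCC boxes in promoters. The amino-terminal parts differ between members, and sort the family into activators such as KLF2 and KLF4, repressors such as KLF3 that recruit CtBP, and repressors such as KLF10, KLF11 and KLF13 that recruit SIN3A with its histone deacetylases. Members often compete for the same sites, and several of them are known for opposing roles in cell growth and differentiation.

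RefSeq promoter windows were available for 8 of the 10 genes (Klf2, Klf3, Klf4, Klf6, Klf7, Klf11, Klf13 and Klf15), on build GRCm38.p6. The 250 bases before the start of transcription are shown for the changed genes among them, because they hold motifs that the family's own proteins bind. They come from chr8:72318812-72319061 on the plus strand for Klf2, chr4:55532476-55532725 on the minus strand for Klf4, chr12:24651121-24651370 on the plus strand for Klf11 and chr7:63938916-63939165 on the minus strand for Klf13. Capitals mark GC boxes, CACCC boxes and the MEF2 element on either strand, and a longer run of capitals in the GC-rich stretches holds overlapping copies.
Klf2: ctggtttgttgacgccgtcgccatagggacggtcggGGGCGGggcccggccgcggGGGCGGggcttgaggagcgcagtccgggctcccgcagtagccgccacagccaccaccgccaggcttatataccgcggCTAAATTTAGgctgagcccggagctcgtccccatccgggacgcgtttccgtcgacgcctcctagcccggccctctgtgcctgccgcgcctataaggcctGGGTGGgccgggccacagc
Klf4: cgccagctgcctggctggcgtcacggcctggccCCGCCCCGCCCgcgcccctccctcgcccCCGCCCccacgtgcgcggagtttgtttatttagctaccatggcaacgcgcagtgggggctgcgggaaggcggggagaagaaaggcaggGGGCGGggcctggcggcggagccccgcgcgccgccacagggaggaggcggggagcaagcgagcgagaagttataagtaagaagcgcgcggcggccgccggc
Klf11: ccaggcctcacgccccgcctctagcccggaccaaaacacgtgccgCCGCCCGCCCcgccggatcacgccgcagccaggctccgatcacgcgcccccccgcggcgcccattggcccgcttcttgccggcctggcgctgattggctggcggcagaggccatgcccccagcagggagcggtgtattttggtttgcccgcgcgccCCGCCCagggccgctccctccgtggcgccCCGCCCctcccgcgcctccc
Klf13: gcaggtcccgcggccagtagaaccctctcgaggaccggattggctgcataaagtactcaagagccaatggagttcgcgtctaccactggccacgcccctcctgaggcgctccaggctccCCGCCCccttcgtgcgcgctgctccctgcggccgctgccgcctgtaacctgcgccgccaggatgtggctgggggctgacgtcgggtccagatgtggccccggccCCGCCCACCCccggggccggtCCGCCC

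The GC box was searched as GGGCGG and the CACCC box as CCACCC, both on either strand. All 8 windows held a GC box, which stood in 32.7% of the 32851 RefSeq windows of the same length. A CACCC box stood in 4 of the 8 windows, and in 28.1% of all windows. The Klf2 window held 2 GC boxes, 1 CACCC box and, alone among the 8, a MEF2 element, the site of the factors downstream of the kinase ERK5, which 2.92% of all windows held. The Klf4 window held 4 GC boxes, the Klf11 window 4 and the Klf13 window 3 with 1 CACCC box that overlaps one of them. An E box (CACGTG, left in lower case) stood in 4 of the 8 windows, among them those of Klf4 and Klf11, against 6.02% of all windows. No window held an exact DR1 element (AGGTCA repeated after 1 base), through which the paper describes RXR homodimers as acting, as 0.0335% of all windows did. Inexact copies and repeats with other spacings were not searched. No window held a CArG box (1.47% of all windows) or cyclic AMP response element (1.55%). These windows are richer in G and C (59.2% to 78.4%) than the median window (52.4%), and a match is a description of the letters only.

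Levels are log2 processed signals from which the 75th percentile of the array was subtracted, so that a value of 0 is the 75th percentile of the probes. A gene was tested when at least 4 of the 8 arrays gave its probe a signal well above background, and it was called when the Benjamini-Hochberg adjusted p of limma was below 0.01 and the fold change above 1.5. Of the 9 Kruppel-like factors tested, 3 were called up and 2 were called down, where 8.38% of the 15320 genes tested were called up and 11.2% were called down. Of the 7 other Klf genes tested, 1 was called up and none was called down. The 9 were picked with earlier results of these data known, so their counts are no test of the family. All 9 passed the adjusted p at any fold, 5 of them higher and 4 lower with HX630, as did 51.2% of all genes. The control and HX630 arrays did not overlap for any of the 9, which was also so for 61.5% of all genes, so the absence of overlap sets these genes little apart. For each of the 9, a two-sided exact permutation test gave p = 0.0286, the smallest that the 70 regroupings of 8 arrays allow.

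**Figure D1:**
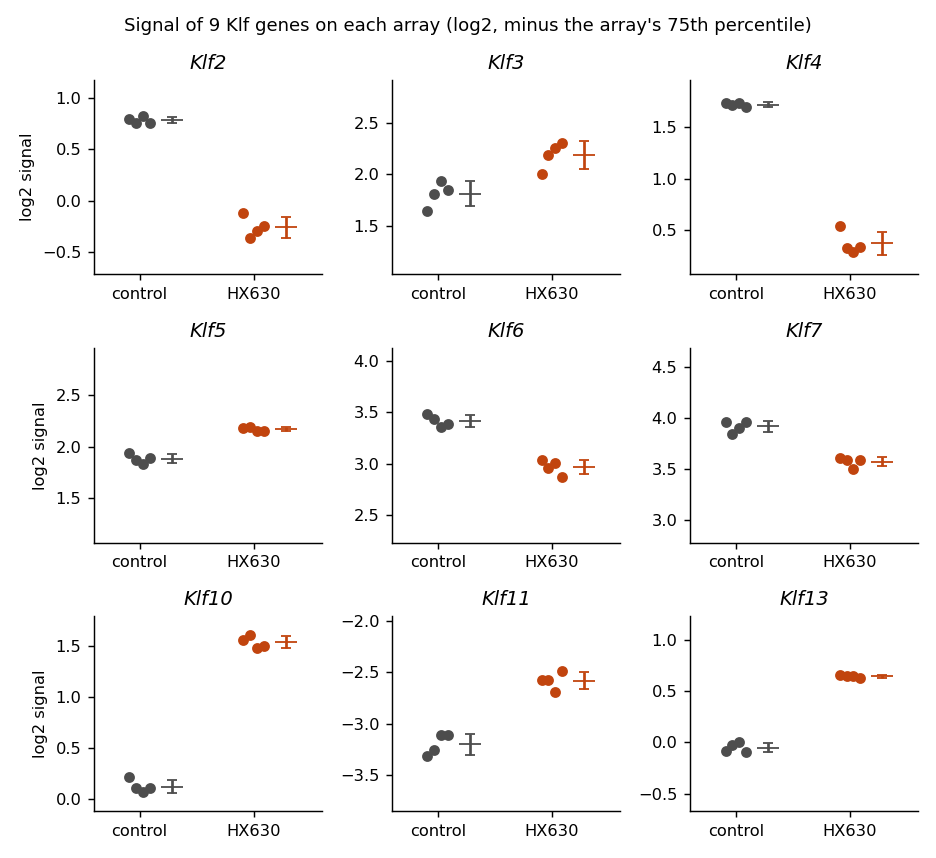
Level of each of the 9 Kruppel-like factors tested (log2 signal relative to the 75th percentile, vertical axis), with 1 point per array for the 4 control and 4 HX630 samples and a bar at each group mean with its SD. The groups are apart in every panel, with the largest mean differences for Klf10 and Klf4 and the nearest arrays for Klf3 (1.93 in control, 2.00 with HX630).

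Klf4, an activator and repressor known from epithelial differentiation and from the reprogramming of somatic cells, had the largest fall. Its control levels were 1.74, 1.72, 1.74 and 1.70, and its HX630 levels were 0.53, 0.32, 0.29 and 0.33. The controls lay within a narrow band, and HX630 replicate 1 stood above the other treated arrays. From 1.72 ± 0.020 to 0.37 ± 0.11 (SD, n = 4 each), Klf4 fell by 1.35 (SE 0.057, 95% confidence interval -1.49 to -1.22) on the log2 scale, to 39.1% of control (adjusted p = 8.32e-07 by limma). This placed it 387 in the order of the 1710 genes called down.

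Klf2, which holds T cells and endothelial cells in a quiescent state, fell as well. The control levels of Klf2 were 0.79, 0.76, 0.82 and 0.76, and the HX630 levels were -0.13, -0.37, -0.30 and -0.24. All treated arrays lay below the 75th percentile, and all controls above it. Klf2 went from 0.78 ± 0.032 to -0.26 ± 0.10 (SD, n = 4 each), a log2 change of -1.04 (SE 0.054, interval -1.17 to -0.92) that left 48.5% of control (adjusted p = 2.16e-06), at position 671 of the 1710. The log2 change of Klf2 was -0.96 with array medians and -0.79 with spike-in probes.

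The pair of close relatives Klf2 and Klf4 did not fall to the same degree. The difference of the Klf2 and Klf4 log2 levels within an array was -0.95, -0.96, -0.91 and -0.94 in control and -0.66, -0.69, -0.59 and -0.57 with HX630. The groups did not overlap, and the fall of Klf4 exceeded that of Klf2 by 0.31 (SE 0.030) on the log2 scale, or 1.24-fold (exact permutation p = 0.0286, adjusted p = 0.0429 over the 3 pairs compared).

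Klf10, a repressor first described as an early gene of TGF-β signalling, had the largest change of the 9 with all arrays in, and stood behind Klf4 only without HX630 replicate 1 (1.40 against -1.41). Its control levels were 0.21, 0.11, 0.07 and 0.11, and its HX630 levels were 1.556, 1.606, 1.480 and 1.495. The spread within either group was small beside the distance between them. Klf10 rose from 0.12 ± 0.063 to 1.53 ± 0.058 (SD, n = 4 each), by 1.41 (SE 0.046, interval 1.30 to 1.52) on the log2 scale or 2.66-fold (adjusted p = 3.07e-07), and stood 209 in the order of the 1284 genes called up.

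Klf13, a repressor and activator known from late gene expression in T cells, rose with the tightest treated group. The control levels of Klf13 were -0.08, -0.03, 0.00 and -0.10, and the HX630 levels were 0.66, 0.65, 0.65 and 0.63. Every control thus lay at or under the 75th percentile and every treated array above it. The rise from -0.051 ± 0.046 to 0.65 ± 0.014 (SD, n = 4 each) was 0.70 (SE 0.034, interval 0.62 to 0.78) on the log2 scale, or 1.62-fold (adjusted p = 1.64e-06).

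Klf11, the nearest relative of Klf10 and linked to a form of diabetes of the young, was measured well below the 75th percentile. Its control levels were -3.32, -3.25, -3.11 and -3.12, and its HX630 levels were -2.58, -2.57, -2.69 and -2.48. The highest control lay below the lowest treated array. Klf11 rose by 0.62 (SE 0.065, interval 0.47 to 0.77) on the log2 scale, or 1.54-fold (adjusted p = 9.67e-05), just past the fold threshold. The call was lost when control replicate 1 was left out (0.58), with normexp background correction (0.51) and with array weights (0.57), each time by the fold and not by the adjusted p.

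Klf10 and Klf11 also differed in their rise. The difference of their levels within an array was 3.53, 3.36, 3.18 and 3.22 in control and 4.13, 4.18, 4.17 and 3.98 with HX630, without overlap. The rise of Klf10 exceeded that of Klf11 by 0.79 (SE 0.092) on the log2 scale, or 1.73-fold (exact permutation p = 0.0286, adjusted p = 0.0429). With normexp the excess was 0.94. In this pair and the others, each gene was read by 1 probe, and whether the probes respond alike was not tested.

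**Figure D2:**
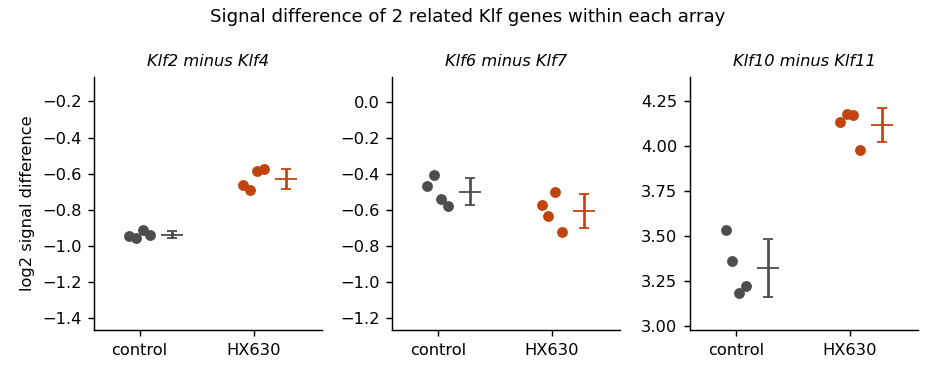
Difference of the log2 levels of both genes of a pair within each array (vertical axis) for Klf2 minus Klf4, Klf6 minus Klf7 and Klf10 minus Klf11, with 1 point per array and the mean with its SD for the 4 control and 4 HX630 samples. The groups are apart for the outer pairs and overlap for Klf6 minus Klf7.

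The other 4 members tested passed the adjusted p but not the fold threshold, and the 95% interval of each stayed inside 1.5-fold. Klf3, a repressor that works through CtBP, had control levels of 1.64, 1.81, 1.93 and 1.85 and HX630 levels of 2.00, 2.19, 2.26 and 2.30. Its log2 difference was 0.38 (SE 0.085, interval 0.18 to 0.58, adjusted p = 0.00567), the widest error of the 9. Leaving out 1 array put Klf3 above the adjusted p of 0.01 in 6 of 8 cases (control replicate 1, 2 or 4, or HX630 replicate 2, 3 or 4), at up to 0.0184, and so did normexp (0.045), the methods' t-test after adjustment (0.013) and the lack of a filter on dim probes (0.011). Klf5, which promotes growth in the crypts of the gut, had control levels of 1.93, 1.87, 1.83 and 1.89 and HX630 levels of 2.18, 2.19, 2.15 and 2.15. The treated arrays of Klf5 lay close together above all controls, 0.29 higher (SE 0.034, interval 0.21 to 0.36, adjusted p = 1.92e-04).

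Klf6 and Klf7 were lower with HX630. Klf6, an early response gene of injured liver, had control levels of 3.49, 3.44, 3.36 and 3.38 and HX630 levels of 3.04, 2.96, 3.00 and 2.87, a log2 difference of -0.45 (SE 0.049, interval -0.56 to -0.34, adjusted p = 1.17e-04) at 73.1% of control. Klf7, which acts in the growth of axons, had control levels of 3.95, 3.85, 3.90 and 3.96 and HX630 levels of 3.61, 3.59, 3.50 and 3.59, a log2 difference of -0.34 (SE 0.042, interval -0.44 to -0.25, adjusted p = 2.26e-04) at 78.9% of control. Neither gene overlapped between groups on this scale, and the difference between their falls was not detectable (Klf6 minus Klf7 -0.11, SE 0.060, exact permutation p = 0.143, adjusted p = 0.143). Before the scaling both genes did overlap, with Klf7 intensities of 19510 to 27820 in control and 20730 to 22860 with HX630, and Klf6 intensities of 14700 to 19140 and 13870 to 14780. Scaled to the spike-in probes, Klf7 stood at -0.087 (adjusted p = 0.358), Klf6 at -0.20 (adjusted p = 0.0105) and Klf3 at 0.63, past the fold threshold.

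Klf15, a regulator of glucose and amino acid metabolism in liver and muscle, had no signal well above background on the 8 arrays. Its processed intensities were 2.77 to 10.65 in control and 2.71 to 5.81 with HX630, and it has no fold change here.

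**Figure D3:**
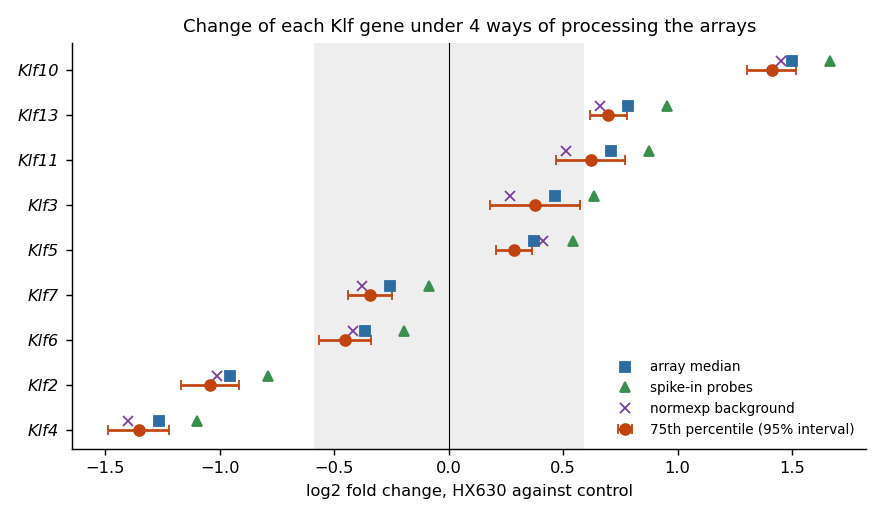
Log2 fold change of HX630 against control (horizontal axis) for each of the 9 Kruppel-like factors under 4 ways of processing the arrays, with the 95% interval for the reported one and the 1.5-fold threshold marked. Klf2, Klf4, Klf10 and Klf13 lie past the threshold in every way shown, and all genes keep their side of 0.

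The scaling sets the zero line of these changes. The 75th percentile of the processed intensity was 1335 to 1863 on the control arrays and 1803 to 1899 on the HX630 arrays, with the lowest on a control. Under the reported scaling the median change of all genes was -0.034, and it was 0.053 with array medians, 0.029 with quantile normalization, -0.098 with normexp and 0.22 with spike-in probes. The share of called genes that were higher moved from 42.9% to 54.7% with array medians and to 74.1% with spike-in probes. Klf2 and Klf4 were called down and Klf10 and Klf13 were called up under all 24 alternatives, and all 9 kept their direction. Between 7 (spike-in probes) and 9 of them passed the adjusted p, and 8 of 9 did not overlap with spike-in probes or normexp. The control arrays shared 1 slide and the HX630 arrays the other, so the slide and its scan cannot be told apart from the treatment.

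Of the 7 other family members tested, Klf16, a repressor of the SIN3A-binding group, was the only one called. Klf16 control levels were -3.53, -3.26, -3.15 and -3.22, and HX630 levels were -2.83, -2.65, -2.44 and -2.45. The groups were apart, with a rise of 0.70 (SE 0.11, adjusted p = 0.0011), or 1.63-fold, that fell below the threshold with normexp (0.55). No other member was called down, and the methods' t-test called none down. Of all genes, 8.38% were called up and 11.2% were called down. Of the 7, 1 was higher and 2 were lower past the adjusted p, where 51.2% of all genes passed it in either direction. At an unadjusted p below 0.05, 1 was higher and 5 were lower. The median change of the 7 was -0.24, and 0.013 with spike-in scaling. By type of repression domain, the 4 Kruppel-like factors called up (Klf10, Klf11, Klf13 and Klf16) all belong to the SIN3A-binding group, in which Klf14 (-0.19, adjusted p = 0.0109) and Klf9 (0.69, adjusted p = 0.211) were not called. In the CtBP-binding group, Klf3 was higher by 0.38, and Klf8 (-0.52, adjusted p = 4.4e-05) and Klf12 (-0.24, adjusted p = 0.00838) were lower, none past the fold. This grouping was made after the values were seen and has no test.

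The Sp factors share the zinc fingers and the GC box with the family. Of 7 Sp genes tested, 2 were called down, where 11.2% of all genes were. Sp9, counted among the 7, also passed the thresholds for a call up but is given only as a bound below. The median change of the 7 was 0.023. Sp7, known as osterix in bone, went from -2.66 ± 0.10 to -3.52 ± 0.021 (SD, n = 4 each), a log2 change of -0.86 (SE 0.054, adjusted p = 5.69e-06). Sp8, which acts in limb and forebrain, had -0.60 (SE 0.058, adjusted p = 5.88e-05) with 1 probe and -0.35 (adjusted p = 0.0604) with another, and its call was lost in 6 alternatives, with values from -0.58 to -0.35, among them without HX630 replicate 4 (-0.57). Sp9, its neighbor in the family, was not well above background on any control array and was so on all 4 HX630 arrays, at least 1.96-fold higher. That bound sets the HX630 mean against, per array, the probe's own signal or, where larger, the lowest of any probe counted as well above background. Sp9 passed the filter through its HX630 arrays alone, so no test of it is given, and under normexp its difference was -0.11. Sp1, the general activator that Kruppel-like factors compete with, differed by 0.02 (interval -0.10 to 0.14, adjusted p = 0.73).

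**Figure D4:**
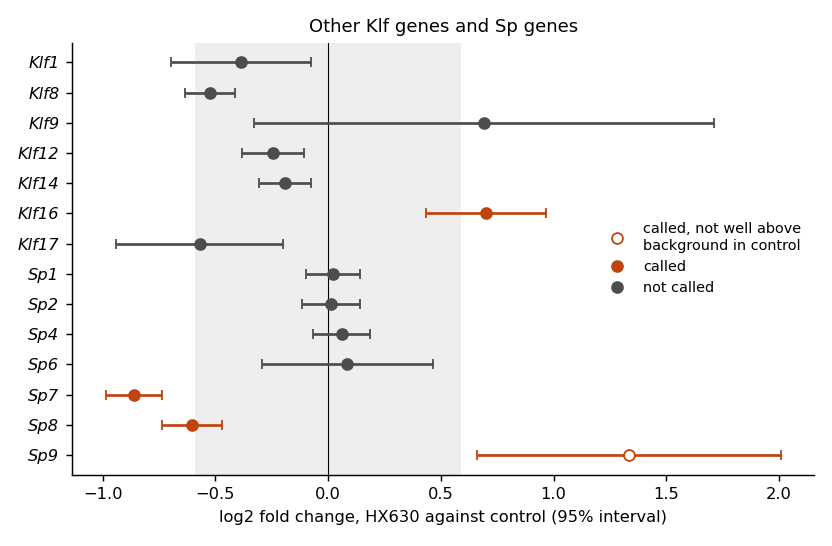
Log2 fold change of HX630 against control (horizontal axis) with its 95% interval for the 7 other Klf genes and the 7 Sp genes tested, with the 1.5-fold threshold marked. The open marker is Sp9, drawn at its fitted value although its control level is only a bound, and the wide interval of Klf9 reflects its 4 HX630 arrays.

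None of 12 genes for partners of the family (the CtBP and SIN3 corepressors, histone deacetylases, acetyltransferases and ubiquitin ligases of KLF proteins) was called in either direction. Of these 12, 6 were higher and 1 was lower past the adjusted p, where 51.2% of all genes passed it in either direction. At an unadjusted p below 0.05, 6 were higher and 2 were lower, and the methods' t-test called none. Their changes lay between -0.56 and 0.41 with a median of 0.19, against -0.034 for all genes. With spike-in scaling 3 of them were called up. Sin3a, the scaffold to which KLF10, KLF11 and KLF13 bind, was 0.24 higher (adjusted p = 0.00118). The lowest was Smurf1, a ubiquitin ligase, at -0.56 (adjusted p = 4.6e-05). Both are named here after their values were seen.

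The kinase ERK5 and MEF2 factors drive Klf2 and Klf4 in endothelial cells. Of 7 genes of this route tested, Mef2d, a MEF2 factor that responds to activity, was the only one called, with -0.99 (SE 0.053, adjusted p = 2.43e-06), and -0.79 with another probe. None was called up, and the methods' t-test called none up. Of all genes, 11.2% were called down. Past the adjusted p, 1 was higher and 1 was lower, where 51.2% of all genes passed it in either direction. At an unadjusted p below 0.05, 1 was higher and 3 were lower. The higher gene was Mapk7, which codes for ERK5 itself, at 0.47 (adjusted p = 2.7e-05), named after its value was seen. Map3k2, also named after its values were seen, differed by 0.05 with its brightest probe and by -0.39 (adjusted p = 4.5e-05) with another. The median of the 7 was -0.01, and above 0 with array medians (0.079) and spike-in probes (0.25), and Mef2c was not well above background.

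Of 17 known targets of the family tested, 3 were called down, where 11.2% of all genes were. Lgals3, the lectin galectin-3, had the largest change (-1.82, SE 0.12, adjusted p = 8.21e-06), which was -1.04 with normexp. Cdkn1a, the cell cycle inhibitor p21 that KLF4 and KLF6 are known to activate, changed by -0.93 (SE 0.049, adjusted p = 2.38e-06), and by -1.78 with another probe. Slc2a4, the insulin-responsive glucose transporter and a target of KLF15, was just past the threshold (-0.59, SE 0.031, adjusted p = 2.09e-06) and lost its call in 7 alternatives, among them without control replicate 1 or 4 (-0.58 each). No target was called up, and the methods' t-test called none up. Past the adjusted p, 3 were higher and 7 were lower, where 51.2% of all genes passed it in either direction. At an unadjusted p below 0.05, 4 were higher and 7 were lower. The median of the 17 was -0.18, and 0.076 with spike-in scaling, under which 4 were called up. Thbd, Krt19 and Edn1 were not well above background.

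Among corticotroph genes, Pomc, the precursor of ACTH, differed by -0.45 (adjusted p = 0.00241), Tbx19, which drives Pomc, by -0.37 (adjusted p = 5.06e-04), and Pitx1, a pituitary homeobox factor, by -0.32 (adjusted p = 4.07e-04), none past the fold. With spike-in scaling the log2 differences were -0.20 for Pomc (adjusted p = 0.0894), -0.11 for Tbx19 (adjusted p = 0.104) and -0.060 for Pitx1 (adjusted p = 0.444), and Pomc was at -0.19 with quantile normalization and -0.28 (adjusted p = 0.0303) with normexp. Pcsk1, the convertase that cuts the precursor, fell by 2.06 on the log2 scale (adjusted p = 1.26e-07). Crhr1, the receptor for corticotropin-releasing hormone, rose by 1.11 (adjusted p = 5.12e-07), and Neurod1, a corticotroph differentiation factor, by 0.72 (adjusted p = 1.43e-04). Markers of other pituitary cells and of vascular, connective and blood cells summed to intensities of 935.6 to 1239 on the control arrays and 1082 to 1231 on the HX630 arrays over 14 genes. The intensity of Pomc was 373200 to 434600 in control and 336700 to 363300 with HX630. Of the 10 such markers tested, 1 (Dcn) was called up and 2 (Gh and Pecam1) were called down, and their part in the changes of the Kruppel-like factors was not tested.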

How the data were processed

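RNA of 4 control and 4 HX630-treated AtT20 samples was hybridised to 1-color Agilent mouse arrays, 1 array per sample. Per the labels and the methods, the authors extracted spot values with Feature Extraction 10.7.3.1, and the deposited processed intensity of each spot is background-subtracted and detrended. A second deposited table, of log2 values from the authors, equals these intensities on a log2 scale after subtraction of each array's 75th percentile (largest difference among the members' probes 0.00125) and served as an alternative.

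From the intensity, control spots (1377 of 44397) and outlier-flagged spots were left out, log2 values were reduced by the 75th percentile of the array, and spots of a probe were averaged, giving 39429 probes. Probes were named through their RefSeq accession, which matched for 26055 of them (66.1%), and a gene with several probes is given by its brightest. The 28553 probes well above background on at least 4 arrays were fitted with lmFit and eBayes (limma 3.58.1, R 4.3.3), with no term for the replicate number. Benjamini-Hochberg adjustment ran over all of them, and with the thresholds of 0.01 and 1.5-fold 2131 probes were called up and 3185 down. The code was tested on simulated data. Between 69.7% and 73.5% of probes were well above background on an array and no spot was saturated. The number of arrays limits the precision, with a median SD within a group of 0.097 on the log2 scale.

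Named genes were all members, every called Klf or Sp gene, up to 3 called genes of each other list with the largest changes, and all corticotroph markers; exceptions are stated. The members and lists were chosen with earlier results of these data known. Promoter windows came from RefSeq (GRCm38.p6); the array design names another build, so no coordinate of the array was used. Alternatives covered the scaling, background correction (normexp, offset 50, from median spot signals), filters, variance model, the methods' t-test, probes and replicates.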

Additional observations from a re-analysis of the deposited data

Results flagged for a closer look

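In 2 of the 52 groups of 4 arrays examined, 1 array stood apart from the rest of its group, where chance alone gives about 1 in 20 groups, or 2.6. For Klf4, the level of HX630 replicate 1 was 0.53 against a mean of 0.31 for the other treated arrays, a gap to its nearest neighbor of 0.832 of the range of the group, past the critical value of Dixon's test. Without that array Klf4 changed by -1.41 and stayed called. For Sp9, control replicate 1 was -6.31 against a mean of -7.59 for the other controls, a gap of 0.834 of the range. No control array measured Sp9 well above background.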

How the results depend on the processing

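Of 551 log2 changes of named genes recomputed under alternatives, 517 kept both their direction and whether they were called. Scaled to the spike-in probes, 4680 probes were called up and 1787 down, and the median of the Sp genes was 0.28 (1 called down), of the partners 0.45 (3 called up), of the ERK5 route 0.25 (1 called up) and of the targets 0.076 (4 called up). Scaled to array medians, the medians were 0.11 (Sp, 1 called down), 0.28 (partners), 0.079 (ERK5 route) and -0.092 (targets, 1 called up). With normexp 1240 probes were called up, and Sp9 turned to -0.11. Without a fold threshold 5763 probes were higher and 7246 lower, with 5 and 4 members. Leaving out 1 array gave 1944 to 2568 probes up and 2880 to 3370 down, 2 to 3 members up and 2 down, and pair differences of 0.29 to 0.33 (Klf2 minus Klf4), -0.14 to -0.07 (Klf6 minus Klf7) and 0.74 to 0.86 (Klf10 minus Klf11). Replicate numbers were not taken as pairs, since 1 of the 4 correlations between deviations of same-numbered arrays, which share a slide position, was -0.0093, with the others at 0.24 to 0.52, and 2 of 4 arrays matched their own number best. With the replicate number as a block, 2210 probes were called up and 3346 down, with 3 members up and 2 down, and Pomc had an adjusted p of 0.0105. The cause of these shifts was not tested. With 4 arrays a group no single exact test can go below 0.0286, with or without 1 array left out.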

Other observations

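Klf9, a SIN3A-binding member that responds to steroid and thyroid hormones, had control levels of -5.61, -5.59, -5.81 and -5.50 and HX630 levels of -4.84, -5.57, -5.75 and -3.59. The treated arrays spanned from within the control range to far above it, and the difference of 0.69 (SE 0.44, interval -0.33 to 1.71) did not pass the test (adjusted p = 0.211 by limma). Klf17 had 2 tested probes, at -0.57 (adjusted p = 0.016) and -0.83 (adjusted p = 0.0147). The second of them was well above background on only 3 control arrays and 1 HX630 array.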
